A study of Mus musculus with 5 samples.

Results

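Car3, Inmt and Upp2 are 3 genes of liver metabolism whose RNA stood far below a common reference RNA in some livers of ethanol-fed mice and close to it in others. They were found through the RefSeq accession that the array gives for each probe. Each gene had 1 probe, so the 3 probes belong to 41174 non-control probes and the 3 genes to 17016 named ones. The genes were chosen from the ratios and the spread reported here, so these values are given as a description and carry no test.

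The study compared livers of male C57BL/6N mice, which had received an ethanol diet for 8 weeks plus 3 ethanol binges of 5 g/kg, with a purchased RNA named mouse assorted total RNA and labelled as liver of the same strain. Each of 5 two-colour arrays carried the RNA of 1 liver sample in Cy5 and the purchased RNA in Cy3, with no dye swap. Ages were not given in the sources used here, and neither was whether the 5 samples came from separate animals, so the spread between them may be technical. Livers on other diets were not analysed here, so every ratio below sets ethanol livers against the purchased RNA and is no measure of what ethanol did.

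All 3 genes encode cytosolic enzymes that are abundant in rodent liver. Car3 is carbonic anhydrase 3, which hydrates carbon dioxide slowly and is also a major protein of fat and skeletal muscle. Inmt is indolethylamine N-methyltransferase, which moves a methyl group from S-adenosylmethionine onto tryptamine and other small amines and is also found in lung. Upp2 is uridine phosphorylase 2, which splits uridine into uracil and ribose-1-phosphate in the breakdown and salvage of pyrimidines.

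The median probe had a background-subtracted brightness of 78.4 to 177 in the livers and 75.5 to 151 in the reference, with liver 1 lowest in both. No spot was saturated. Of 16 hepatocyte markers, read as a check of the labelled tissue, 14 were tested. The filter for testing asks for a signal well above background in a channel on at least 3 arrays. Of these 14, 0 were below background in the livers on all arrays, a count that the filter largely fixes. Their summed signal was 1127169 to 1309564 in the livers and 552907 to 892606 in the reference, and albumin (Alb) was called higher in the livers at a mean log2 ratio of 1.15 (limma, adjusted p = 0.0018, n = 5). That mean was under 2-fold, and so not called, at 0.75 with processed signals and with the deposited ratios, and at 0.97 without liver 5.

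Since all 3 genes were lowest in the same liver, the 250 bases before their starts were read from RefSeq promoters of mouse assembly GRCm38.p6 and searched for short motifs on both strands. Windows were found for 2 of the 3 genes, Inmt and Upp2. Capitals mark the TATA box TATAAA in both windows and, for Upp2, the nuclear receptor half-site AGGTCA as well. The windows are chr6:55174991-55175240 on the minus strand for Inmt and chr2:58754934-58755183 on the plus strand for 1 of the 2 starts of Upp2.
Inmt: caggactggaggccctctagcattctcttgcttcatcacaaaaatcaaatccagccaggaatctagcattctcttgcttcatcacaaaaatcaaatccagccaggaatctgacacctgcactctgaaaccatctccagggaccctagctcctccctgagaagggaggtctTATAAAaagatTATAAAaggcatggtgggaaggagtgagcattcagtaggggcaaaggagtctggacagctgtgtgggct
Upp2: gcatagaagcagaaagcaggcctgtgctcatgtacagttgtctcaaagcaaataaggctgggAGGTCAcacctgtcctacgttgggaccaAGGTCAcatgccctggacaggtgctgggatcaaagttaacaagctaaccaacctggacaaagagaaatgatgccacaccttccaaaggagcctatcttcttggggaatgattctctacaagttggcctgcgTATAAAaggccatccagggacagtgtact
The Inmt window held 2 TATAAA motifs, beginning 80 and 69 bases before the start, and the Upp2 window held 1, beginning 29 bases before it. TATAAA was found in 12.4% of 32851 mouse promoter windows of the same length. The Upp2 window held AGGTCA at 188 and 160 bases before the start, a motif present in 14.0% of windows. The STAT-type motif TTCNNNGAA, present in 7.02% of windows, was in neither of the printed windows. The other start of Upp2 held none of the 3 motifs. These matches say only which letters are in the windows. None of the motifs overlapped another.

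The log2 ratio of liver over reference for Car3 was -5.84 in liver 1, -0.73 in liver 2, -0.60 in liver 3, -2.64 in liver 4 and -0.81 in liver 5. Liver 1 was thus far below the rest, liver 4 lay between, and livers 2, 3 and 5 stood close together. The reference exceeded the liver 57.2-fold in liver 1 and 6.25-fold in liver 4, but only 1.51-fold to 1.76-fold in the other livers. In whole tissue, fewer cells that make an RNA and less of it per cell cannot be told apart.

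The Inmt ratio was -4.61 in liver 1, -1.95 in liver 2, -0.45 in liver 3, -2.07 in liver 4 and -1.15 in liver 5. Liver 1 was again the lowest and liver 3 the highest, with livers 2 and 4 close to each other in between. As a share of the reference, Inmt RNA amounted to 4.10% in liver 1, 25.9% in liver 2, 73.3% in liver 3, 23.9% in liver 4 and 45.0% in liver 5.

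The Upp2 ratio was -3.65 in liver 1, -0.58 in liver 2, -1.37 in liver 3, -0.06 in liver 4 and -2.35 in liver 5. Liver 1 was lowest here too, but the second lowest was liver 5, and liver 4, low for the other genes, was level with the reference. The reference exceeded the liver 12.5-fold in liver 1, 5.11-fold in liver 5, 2.58-fold in liver 3, 1.50-fold in liver 2 and 1.05-fold in liver 4.

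**Figure D1:**
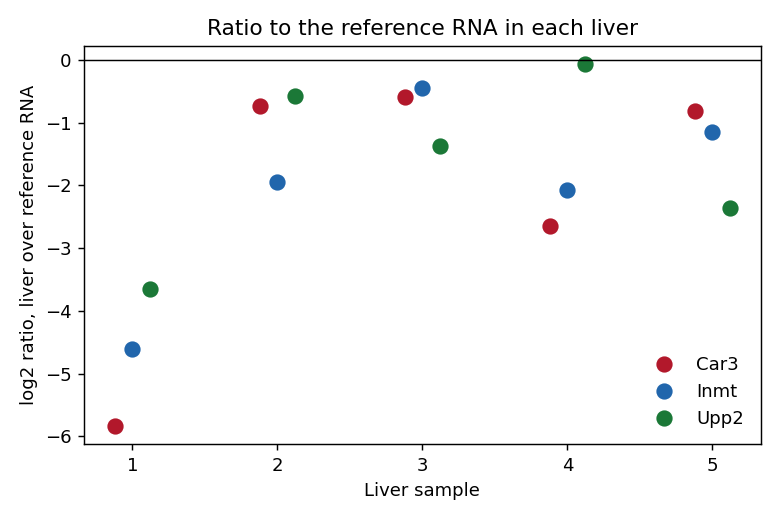
Log2 ratio of liver over reference RNA (y axis) in each of the 5 liver samples (x axis) for Car3, Inmt and Upp2, 1 point per gene and array, with 0 marking equal signal. All points lie below 0, the 3 points of liver 1 are between -5.84 and -3.65, and liver 4 holds both the second lowest Car3 value and the highest Upp2 value.

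Averaged over the livers, the log2 ratio was -2.12 ± 2.24 for Car3, -2.04 ± 1.58 for Inmt and -1.60 ± 1.43 for Upp2 (SD, n = 5), with the ratio below 0 in 5 of 5 livers for each. These means equal 4.36-fold, 4.13-fold and 3.04-fold lower levels in the livers. Ordered from the lowest mean, Car3 was number 4, Inmt number 6 and Upp2 number 19 of 14917 genes tested. The median over all those genes was -0.02.

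A gene was called when limma gave an adjusted p below 0.05 and a change of at least 2-fold. By that rule 0 of the 3 genes were called lower and 0 higher, although 3 had an unadjusted p under 0.05. Over all genes tested, 0.416% were called lower and 0.858% higher, and 41.3% had an unadjusted p under 0.05. Because the genes were picked from these ratios, nothing is read from this count. Without liver 1 the means were -1.19 for Car3, -1.40 for Inmt and -1.09 for Upp2, so leaving out that liver moved the Car3 mean more than the means of Inmt and Upp2.

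The signals behind the ratios show in which channel the values moved. Background-subtracted Car3 signal in livers 1 to 5 was 1149, 42045, 59624, 13984 and 40580, against 67309, 68396, 73985, 101294 and 95186 for the reference on the same arrays. The brightest liver thus exceeded the dimmest 51.9-fold, whereas the reference differed by 1.50-fold at most.

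Inmt signal was 497, 5040, 18586, 4632 and 8263 in livers 1 to 5, against 13018, 19912, 21001, 23893 and 25812 for the reference. Upp2 signal was 136, 1950, 1231, 2158 and 399 in livers 1 to 5, against 2069, 3009, 2743, 2864 and 3270 for the reference. The span was 37.4-fold over the livers and 1.98-fold over the reference for Inmt, and 15.9-fold and 1.58-fold for Upp2.

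On all 5 arrays both channels of the 3 probes were well above background, so no value is a bound. After normalization of each channel, the SD of log2 signal over arrays was 2.08 in the livers and 0.17 in the reference for Car3. It was 1.62 and 0.08 for Inmt, and 1.38 and 0.16 for Upp2. The median gene had 0.22 in the livers and 0.15 in the reference.

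**Figure D2:**
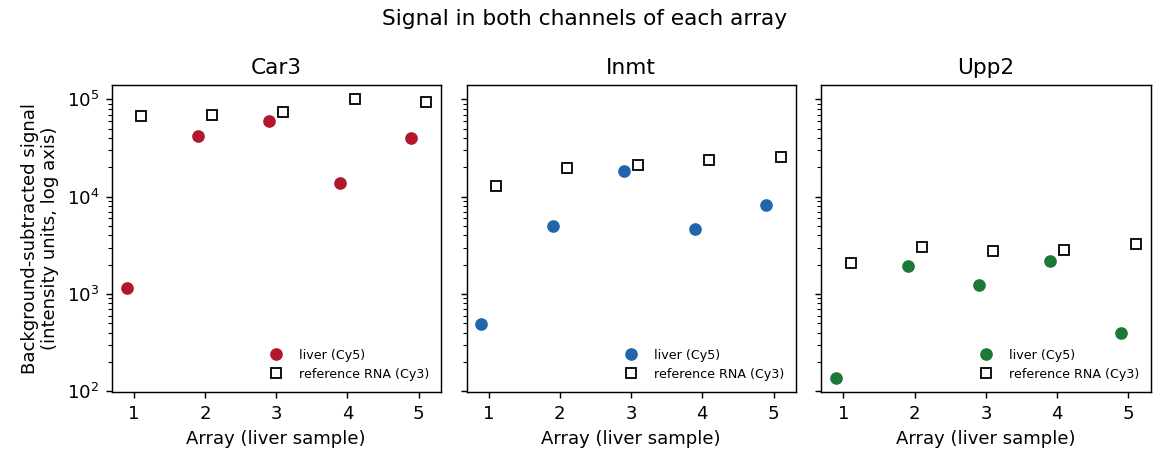
Background-subtracted signal in intensity units (log axis) of the liver channel (filled circles) and of the reference channel (open squares) on each of the 5 arrays, 1 panel per gene. The reference points stay within 1.98-fold for every gene, while the liver points span 51.9-fold for Car3, 37.4-fold for Inmt and 15.9-fold for Upp2.

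The 3 genes were among the most variable between these livers. Over the 12007 genes that both channels detected above background on every array, Car3 had the largest SD of the log2 ratio, Inmt ranked 7 and Upp2 ranked 14. The median gene had an SD of 0.19 and the 99th percentile was 0.79. From the lowest to the highest liver, the ratio spanned 37.8-fold for Car3, 17.9-fold for Inmt and 12.0-fold for Upp2.

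Without liver 1 the SD was 0.97 for Car3, 0.76 for Inmt and 1.00 for Upp2, against a median of 0.18 for all genes. The ranks were then 66, 175 and 58. Part of the rank therefore rested on liver 1, and Upp2 became the most variable of the 3. As a measure of noise within an array, 156 probes spotted at least 10 times had a median SD of 0.09 between spots of an array and 0.18 between livers.

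Each gene had 1 spot per liver, so the error of a single step between neighbouring livers is not known. For Car3, liver 5 differed from liver 2 by 0.08 and liver 2 from liver 3 by 0.13 on the log2 scale, whereas liver 1 lay 3.19 below liver 4 and liver 4 lay 1.83 below liver 5. For Inmt, livers 4 and 2 differed by 0.12, liver 1 lay 2.54 below liver 4, and the remaining steps were 0.80 and 0.71. For Upp2 the steps were 1.29, 0.98, 0.79 and 0.52 from the lowest liver upwards.

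**Figure D3:**
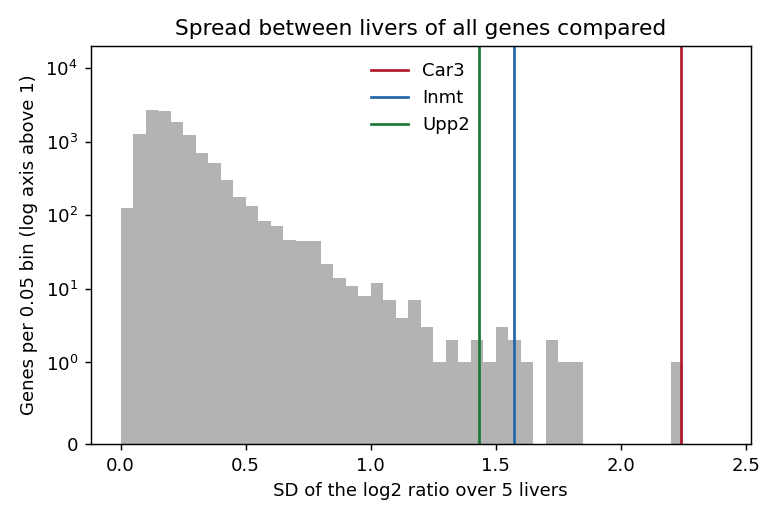
Number of genes (y axis, log scale above 1) by the SD of their log2 ratio over the 5 livers (x axis, bins of 0.05) for the 12007 genes compared, with vertical lines at Car3, Inmt and Upp2. Most genes lie near the median of 0.19, and the 3 lines lie at 2.24, 1.58 and 1.43, in the far right tail.

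Ranked within each liver, the genes also stood toward the low end of all ratios, except Upp2 in liver 4. Ranked from the lowest ratio in liver 1, Car3 was 1, Inmt 2 and Upp2 3 of 14698 genes with a value. In liver 2 Inmt ranked 19, Car3 549 and Upp2 985 of 14775. In liver 3 Upp2 ranked 37, Car3 451 and Inmt 963 of 14425. In liver 4 Car3 ranked 6 and Inmt 12 of 14533, while Upp2 ranked 6217. In liver 5 Upp2 ranked 3, Inmt 51 and Car3 196 of 14560. Liver 1 was thus the only liver in which the 3 genes together held the lowest places.

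Markers of tissues where these enzymes are abundant were read in the same livers. The 10 tested adipocyte markers had a mean log2 ratio of -0.61 in liver 1, -0.21 in liver 2, -0.39 in liver 3, -0.36 in liver 4 and -0.16 in liver 5. Adipoq, which encodes the fat cell hormone adiponectin, had -0.11, 0.09, 0.05, 0.28 and -0.33 in the same order. The single markers differed: Cfd had -1.86, -0.97, -1.12, -1.02 and -0.36. Of 9 adipocyte markers compared over all livers, 4 were lowest in liver 1, beside 20.9% of all genes. The summed adipocyte signal was 5298 to 11571 in the livers and 6913 to 13580 in the reference, and it was lowest in liver 1 in both channels.

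Among adipocyte markers 0 were called higher and 2 lower, Cidec and Cfd, beside 0.858% and 0.416% of all genes. Both calls were lost without liver 1, that of Cidec also without liver 3 or 4. Of the 10 adipocyte markers tested, 6 had an unadjusted p under 0.05 (limma), beside 41.3% of all genes. Skeletal muscle markers, 8 of 12 tested, averaged -0.02 in liver 1 and between -0.18 and 0.23 in the other livers, with 0 called. Their summed signal was 5226 to 11527 in the livers and 4463 to 6731 in the reference. Of the 8 muscle markers, 4 had an unadjusted p under 0.05 (limma), beside 41.3% of all genes.

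Lung markers, 6 of 9 tested, averaged between -0.26 and 0.02, and kidney markers, 9 of 10 tested, between -0.03 and 0.09, again with 0 called. In each list 3 had an unadjusted p under 0.05 (limma), beside 41.3% of all genes. Summed lung signal was 343 to 885 in the livers and 474 to 1028 in the reference. The list means in liver 1 were -0.26 for lung and 0.02 for kidney. No tested marker of these lists was below background in the liver channel of all arrays, which the filter for testing largely fixes. The part of these cells in the ratios of Car3, Inmt and Upp2 was not tested.

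Each gene was then set beside its own enzyme family. Of the other carbonic anhydrases, 14 were tested and 0 called, with 6 (against 41.3% of all genes) at an unadjusted p under 0.05 by limma. Their means ran between -0.44 for Car8, a member without catalytic activity, and 0.44 for Car9, a membrane-bound member. The family's largest SD was 0.61, for Car13, a cytosolic member. The Car13 ratio was -1.01, 0.20, -0.54, 0.40 and -0.73 in livers 1 to 5, which ranks the livers in the order of Upp2 and not of Car3. The family's median was -0.18, against -0.02 for all genes tested.

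Of the other methyltransferases and enzymes of S-adenosylmethionine use, 14 were tested and 0 called, with 7 at an unadjusted p under 0.05 by limma, where all genes had 41.3%. The highest mean was that of Bhmt, which remethylates homocysteine, at 0.87. Nnmt, which methylates nicotinamide, had the largest SD at 0.95, with 0.82, 1.52, -0.99, -0.10 and 0.48 in livers 1 to 5. Nnmt was lowest in liver 3, where Inmt was highest. Gnmt, the glycine methyltransferase that consumes much of the liver's S-adenosylmethionine, had -0.96 in liver 1 and -0.17 to 0.14 in the others.

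Of 12 tested genes of tryptophan and indole amine use, the substrate side of Inmt, 0 were called and 4 had an unadjusted p under 0.05 (limma), beside 41.3% of all genes. The list mean was -0.43, -0.24, -0.13, -0.05 and -0.33 in livers 1 to 5. Of 8 of its genes compared over all livers, 6 were lowest in liver 1, beside 20.9% of all genes. Ddc, the decarboxylase that makes tryptamine, had the lowest mean, -0.80, and its lowest ratio was -1.45 in liver 2. Kmo, an enzyme of the kynurenine route, had the highest mean at 0.08. The largest SD was 0.57, for Tdo2, the first enzyme of that route, which had values on 3 arrays.

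Of 16 tested genes of pyrimidine salvage and breakdown, the pathway of Upp2, 0 were called and 6 had an unadjusted p under 0.05 (limma), beside 41.3% of all genes. Means ran between -0.58 for Uck1, a uridine kinase with values on 4 arrays, and 0.20 for Cad, which starts pyrimidine synthesis. Dpyd, which reduces the uracil that Upp2 releases, had -0.53 on 3 arrays. The largest SD was 0.61, for the thymidine kinase Tk1. Tymp, which splits thymidine as Upp2 splits uridine, had -0.31, -0.51, 0.15, -0.13 and -0.03 in livers 1 to 5. The medians were -0.17 for the tryptophan list and -0.16 for the pyrimidine list.

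The sex of the liver, set by the pulses of growth hormone, controls many rodent liver enzymes, so both sets of such genes were read. Of 17 tested male-biased genes, 1 was called higher and 5 lower, beside 0.858% and 0.416% of all genes. Of these 17, 9 had an unadjusted p under 0.05 (limma), beside 41.3% of all genes. Hsd3b5, a steroid dehydrogenase of male liver, had -2.82, -3.40, -1.47, -3.64 and -3.34 in livers 1 to 5 and a mean of -2.93 (limma, adjusted p = 0.0020, n = 5). In these ratios Hsd3b5, unlike Car3, was not lowest in liver 1. Its liver signal fell to 23.0, below the offset added in background correction, and its mean was -4.14 with processed signals. This contrast with Car3 may therefore depend on how dim signals were treated. The order of the livers for Hsd3b5 with processed signals was not tested. The call of Cyp4a12a was lost without liver 1 and without liver 2. The only call higher, that of Serpina1e, was lost with processed signals and with the deposited ratios, at a mean of 0.92 in both.

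Of 16 tested female-biased genes, 0 were called higher and 1 lower, Cyp2a4, beside 0.858% and 0.416% of all genes. Of these 16, 10 had an unadjusted p under 0.05 (limma), beside 41.3% of all genes. The call of Cyp2a4 did not hold without liver 5 (adjusted p = 0.057, limma) or with median centring (adjusted p = 0.055). The mean ratio of the female-biased list was -0.93 in liver 1, -0.42 in liver 2, 0.13 in liver 3, -0.13 in liver 4 and 0.00 in liver 5. The male-biased list had -0.49, -0.36, -0.41, -0.39 and -0.66 in the same order. Each mean took the genes with a value in that liver. The female-biased Cyp3a44, at -2.11 in liver 1, had none in livers 3 and 5. Cyp4a14, the fatty acid hydroxylase, had the largest SD of the female-biased list at 1.75, with -2.37 in liver 1 and 1.66 in liver 5.

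Acute phase genes, which the liver turns on in inflammation, averaged 1.34, 1.85, -0.54, 0.88 and 0.85 in livers 1 to 5. Liver 3, where Car3 and Inmt were highest, was the only liver with a mean below 0. Targets of PPARA, the fatty acid receptor, averaged -0.87, -0.60, -0.13, -0.53 and 0.08. Cyp4a10 and Cyp4a14, at -2.41 and -2.37 in liver 1, belong to both the PPARA and the female-biased list. Hepatocyte markers averaged 0.72, 0.65, 0.29, 0.55 and 0.76, so the mean of liver 1 was not low. The single markers differed: of 10 compared over all livers, 3 were lowest in liver 1. Alb was lowest there at 0.78, while Fgb, also in the acute phase list, had 1.88 there. The part of such differences between livers in the ratios of the 3 enzymes was not tested.

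**Figure D4:**
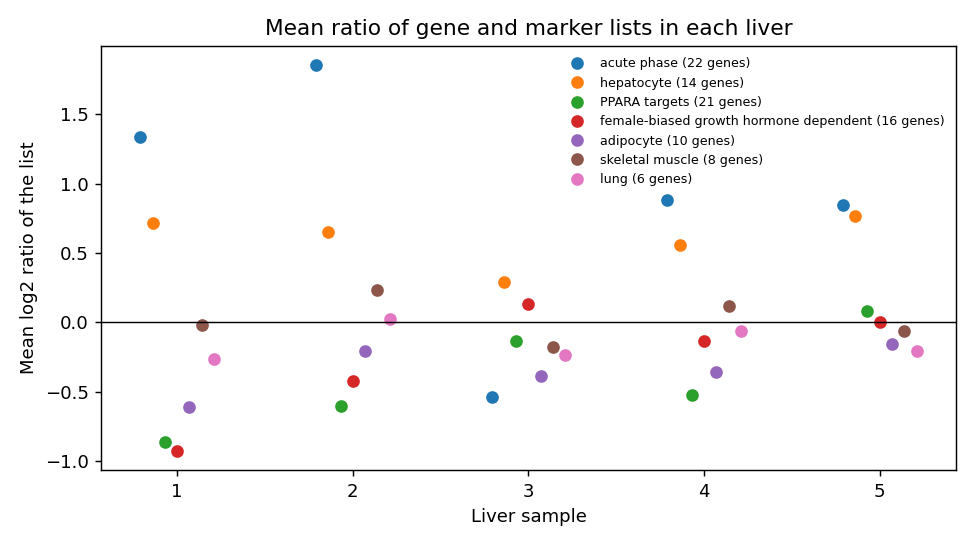
Mean log2 ratio of liver over reference (y axis) of 7 gene and marker lists in each liver sample (x axis), 1 point per list, with the number of genes in the legend. Liver 1 shows the lowest means of the PPARA (-0.87), female-biased (-0.93), adipocyte (-0.61) and lung (-0.26) lists, while its hepatocyte mean is 0.72. The PPARA and female-biased lists share Cyp4a10 and Cyp4a14, and each mean took the genes with a value in that liver.

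The order of the livers was next compared with that of other genes. From lowest to highest, Car3 ranked the livers 1, 4, 5, 2, 3, and Inmt ranked them 1, 4, 2, 5, 3. Upp2 ranked them 1, 5, 3, 2, 4. The order of Car3 was shared by 63 other genes (0.525% of 12007), that of Inmt by 85 (0.708%) and that of Upp2 by 303 (2.52%). The median order was held by 85.5 genes and the order of Upp2 was the most common of 120. Liver 1 was the lowest liver for 20.9% of the genes.

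Among 530 genes with an SD of at least 0.5, the order of Upp2 was shared by 49 (9.26%), that of Car3 by 5 and that of Inmt by 3. The genes with the order of Car3 were Ces1b and Ces1e, carboxylesterases that cleave esters of lipids and drugs, Fbp1, the gluconeogenic fructose bisphosphatase, Tmem100, and Hamp2, a relative of the iron hormone hepcidin. Those with the order of Inmt included Cd74, the invariant chain of MHC class II, and Acaa1b, a peroxisomal thiolase. The 49 genes with the order of Upp2 included Car13.

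The genes with the order of Upp2 had a median liver signal of 324, close to the 346 of all genes compared and below the 1175 of Upp2 itself. With processed signals and with the deposited ratios, the order of Car3 became that of Inmt, through livers 2 and 5, which differed by 0.08 for Car3. No alternative that kept all 5 livers changed the order of Inmt or Upp2. With median centring the order of Upp2 was shared by 90 genes and that of Inmt by 26.

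An order ignores size, so likeness was also measured as the root mean square difference between log2 ratios, each gene centred on its own mean over the 5 livers. Smaller values mean more alike, and 5 arrays allow no test of it. Car3 and Inmt differed by 0.83, and 0 genes were closer to Car3 than Inmt was, although 11 genes were closer to Inmt than Car3 was. The median distance of all genes was 2.01 from Car3. Upp2 was less alike, at 1.62 from Car3 and 1.27 from Inmt, where the median distance from Inmt was 1.42. Of the 12007 genes, 11914 were closer to Upp2 than Car3 was, and 5110 were closer to Upp2 than Inmt was. From the other side, 29 genes were closer to Car3 and 967 closer to Inmt than Upp2 was. Without liver 1 the distance was 0.67 between Car3 and Inmt, 1.55 between Car3 and Upp2 and 1.39 between Inmt and Upp2.

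After Inmt, the genes most like Car3 were Ces1f and then Cyp3a41a at 1.15, Ces1d at 1.21 and Serpina6 at 1.25, followed by Cd74 and Igtp at 1.34 each and Ces1b at 1.35. Those most like Inmt were Cyp3a41a at 0.41, Ces1f at 0.46, Ces1d at 0.52 and Serpina6 at 0.57, followed by Cyp4a10 and Cd74 at 0.66 each, Ces1b at 0.78 and Rdh16 at 0.79. Both sets hold carboxylesterases and a female-biased P450, and Serpina6 encodes the carrier of corticosteroids in blood. Igtp encodes a GTPase induced by interferon, and Rdh16 a retinol dehydrogenase.

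Ces1f had -3.08, -0.77, 0.05, -0.72 and -0.77 in livers 1 to 5, and Cyp3a41a had -2.22, -0.68, 0.90, -0.62 and 0.65. Both were lowest in liver 1 and highest in liver 3, as Inmt was. Cd74 had -2.88, -1.55, -0.66, -1.58 and -1.05 and was the only gene of these 2 sets that was called, as lower (adjusted p = 0.012, limma, n = 5). Ces1 genes and the Cyp3a and Cyp2a genes have near-identical relatives, whose RNA a probe may also bind, so these values are uncertain as to the gene.

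These sets depended on liver 1. Taken again without it, 0 of the 8 genes nearest to Car3 and 1 of the 8 nearest to Inmt, Cyp3a41a, remained. The nearest to Car3 were then Olfr523, Lpin1 and Lepr at 0.46, 0.47 and 0.49, where Lpin1 is an enzyme of triglyceride synthesis and Lepr the leptin receptor. The nearest to Inmt were Tkfc and Fabp1 at 0.18 each, where Fabp1 is the fatty acid binding protein of liver. With outlier spots kept, Cyp3a16, Cyp3a11 and Cyp3a44 joined the nearest genes of both Car3 and Inmt.

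The genes most like Upp2 were others. Ptgir, the prostacyclin receptor, lay at 0.57, and Map7d3, Cyp2a5 and Tcp11x2 at 0.59 each. Cyp2a4 followed at 0.61, Plekhg1 at 0.62, and Kcnip4 and Anln at 0.66 each. Cyp2a4 and Cyp2a5 are P450 enzymes of steroid and coumarin hydroxylation. Cyp2a5 had -3.16, -1.63, -0.98, -0.39 and -1.95 in livers 1 to 5, with liver 1 lowest, liver 5 next and liver 4 highest, as for Upp2.

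Cyp2a5 was called lower (adjusted p = 0.024, limma, n = 5), a call that did not hold without liver 5 or with median centring (adjusted p = 0.068 in both). Tcp11x2 was called higher (adjusted p = 0.038), a call lost with median centring, with scaling between arrays and without liver 2, 3 or 4. Map7d3 had a second probe whose SD was 0.27, against 0.86 for the probe used, and the second probe of Anln also had an SD of 0.27, against 0.69. Without liver 1, 5 of the 8 nearest genes of Upp2 remained, while processed signals retained 2, Cyp2a4 and Kcnip4.

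Genes with the opposite pattern were sought in the same way, by the root mean square of the sum. For Car3 these were Hmgcs1 at 1.33, Cyp51 at 1.40, and Insig1 and Msmo1 at 1.41 each. Hmgcs1, Cyp51 and Msmo1 are enzymes of cholesterol synthesis, and Insig1 holds back the factors that turn such genes on. Hmgcs1 had 0.59, -1.35, -1.33, -0.31 and -0.76 in livers 1 to 5, highest where Car3 was lowest. Insig1 had -0.24, -2.12, -1.67, -0.97 and -1.55 and was called lower (adjusted p = 0.013, limma, n = 5).

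For Inmt they were Sqle at 0.78, Sult1e1 at 0.82, Cxcl14 at 0.84 and Hmgcs1 at 0.86, where Sqle is another enzyme of cholesterol synthesis, Sult1e1 inactivates oestrogens and Cxcl14 is a chemokine. For Upp2 they were Gmppb at 0.82, Mvd at 0.84, Ly6d at 0.86 and Cxcl14 at 0.87, where Mvd also belongs to cholesterol synthesis. Mvd had 0.73, -1.72, -1.29, -0.47 and 0.55 in livers 1 to 5. All of these genes were highest in liver 1 except Gmppb, which was highest in liver 5.

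**Figure D5:**
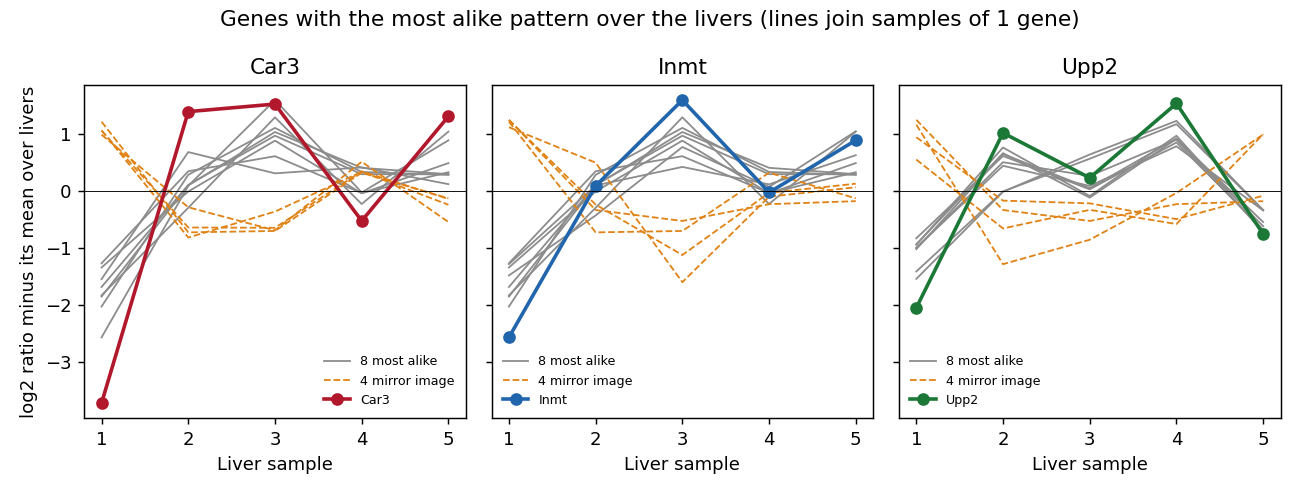
Log2 ratio minus the gene's own mean over livers (y axis) in the 5 liver samples (x axis), 1 panel each for Car3, Inmt and Upp2 (thick line), with the 8 most alike genes in grey and the 4 mirror-image genes dashed in orange. Lines join values of 1 gene and the samples have no order. The grey lines share the low value of liver 1 in every panel but reach less far down than Car3, whose centred value there is the lowest of all.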

How the data were processed

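The file headers name Agilent Feature Extraction 11.5.1.1, as do the submitters' processing notes without the version. The authors deposited spot intensities of both channels that were not normalized, and processed intensities that were background-subtracted and dye-normalized. Per the file headers, the deposited files also hold the log10 ratio of red over green processed intensity and a p-value of it from the scanner's error model, which was not used. A table of 40599 log2 ratios from the authors was set against these files. For 99.7% of its probes it lay within 0.001 of liver over reference in processed intensity, on every array. The columns had medians of -0.03, -0.07, -0.08, -0.10 and -0.03, so there was no further centring. The sources used here do not say how its probes were selected.

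Ratios started from median intensities. Background was corrected by normexp (offset 50) on all spots, followed by loess within arrays, giving control and outlier spots weight 0 (limma 3.58.1, R 4.3.3). Those spots were left out afterwards, outliers being 2.53% to 4.18% of 45018 spots per array, and spots of a probe were averaged. Signals per channel used loess with Aquantile. Between 77.3% and 81.2% of spots were well above background in the liver channel and 69.9% to 78.4% in the reference channel. The number of arrays limits the precision.

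RefSeq accessions were looked up in an annotation of GRCm38.p6, which named 24375 of 41174 probes. A probe was tested if at least 3 arrays had it well above background in a channel and at least 3 values remained, and the brightest tested probe stood for its gene, giving 14917 genes. The mean of a list in a liver took the tested genes with a value there, so its genes can differ between livers. limma fitted an intercept only, with trended and robust eBayes, two-sided, with Benjamini-Hochberg adjustment over all genes, and a call needed an adjusted p below 0.05 and at least 2-fold. The spread of the reference RNA is left out of this test, and a dye effect of a probe does not cancel. The p-values reflect the spread between samples alone.

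The 3 genes, the gene lists and the naming rule were chosen with earlier results of these data known. The rule names the 3 genes, for each the 8 nearest and 4 mirror-image genes, and from the lists the 2 highest, the 2 lowest and the most variable member, with clone and predicted names skipped. Adipoq, Gnmt, Tymp, Cidec, Cfd, Cyp4a12a, Ehhadh, Cyp7a1, Col1a1, albumin, the genes with the same order and those nearest without liver 1 were named after their values were seen. Alternatives changed the normalization, starting values, background correction, scaling, filters, probes and replicates. The fitting steps were tested on simulated data. Some genes that the rule or the orders would name are not reported here.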

Additional observations from a re-analysis of the deposited data

Results flagged for a closer look

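Dixon's test for a sample far from the rest was applied to 72 genes and list means over the 5 livers and marked 6. Of Car3, Inmt and Upp2 themselves, 0 were marked. Of the 6 marked, 5 were marked in liver 1. They had been picked for a pattern near or opposite to that of Car3, Inmt or Upp2, in which liver 1 is lowest, so that liver standing apart in them is largely fixed by the choice and the usual chance rate of about 5% does not apply. The log2 ratio of liver 1 was -3.08 for the carboxylesterase Ces1f, -1.74 for the interferon-induced Igtp and -2.03 for the retinol dehydrogenase Rdh16, below the other livers. It was 1.27 for the chemokine Cxcl14 and 0.035 for Ly6d, above the other livers. Liver 4 stood apart for Bhmt, the homocysteine methyltransferase, at 1.53, above the other livers.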

How the results depend on the processing

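Every alternative kept the mean ratios of Car3, Inmt and Upp2 below 0. Without leaving out a liver they ran between -2.30 and -2.12 for Car3, -2.19 and -2.04 for Inmt, and -1.81 and -1.60 for Upp2. With 1 liver left out they ran between -2.51 and -1.19, -2.44 and -1.40, and -1.99 and -1.09. The SD over livers then ran between 0.97 and 2.56 for Car3, 0.76 and 1.82 for Inmt, and 1.00 and 1.65 for Upp2, the lowest value of each coming without liver 1. Of the genes called, 128 were higher and 62 lower. Processed signals gave 321 and 156, the deposited ratios 324 and 155, and averaging the probes of a gene 84 higher, and the cause was not tested. Median centring gave 96 higher and 77 lower. With 1 liver left out the counts were 98 to 150 higher and 53 to 71 lower. Genes sharing the order of Inmt fell to 26 and those of Upp2 to 90 with median centring, the cause of which was not tested, and otherwise stayed within 1.5 times the reported counts. Nearest genes under each setting were an alternative added after seeing the data. No paired analysis was possible because there is only 1 group. A slide as a block could not be fitted, since each array lay on a slide of its own. With 1 probe per gene, no second probe checks these values, and the ratio rests on a purchased RNA without a dye swap.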

Other observations

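Other liver gene groups were read in the same livers, by the same limma calls, beside 0.858% of all genes called higher, 0.416% lower and 41.3% with an unadjusted p under 0.05. Of 16 tested genes of fatty acid and triglyceride synthesis, 0 were called higher and 7 lower, and the list mean was -1.04, -1.18, -0.55, -1.24 and -0.74 in livers 1 to 5. Without liver 4, 4 of these 7 calls were retained, 2 were lost and 1 gene had too few values. Of 22 acute phase genes 5 were called higher and 1 lower, of which 3 were retained, 2 lost and 1 not tested without liver 1. Of 21 PPARA targets 0 were called higher and 3 lower, and the call of Ehhadh was lost without liver 1, 2 or 4.

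The 16 tested pericentral hepatocyte genes averaged -1.05, -0.64, -0.10, -0.04 and -0.40 in livers 1 to 5, with 0 called higher and 3 lower, of which Cyp7a1 was lost without liver 5, with outlier spots kept and with probes averaged. Each mean took the genes with a value in that liver. Cyp2c29, at -0.66 in liver 2 and 1.21 in liver 4, had none in liver 1. The 10 periportal genes averaged -0.97, -0.30, -0.19, -0.55 and -0.43, with 0 higher and 1 lower, a call lost without liver 1 or liver 4. Liver 1 was lowest in both lists, as it was for Car3, Inmt and Upp2. Glucocorticoid targets averaged 0.27, 0.66, -0.90, -0.14 and 0.32 and circadian clock genes -0.25, -0.30, -0.24, -0.16 and -0.18, with 0 called in both. Of 12 and 19 tested, 2 and 7 had an unadjusted p under 0.05 (limma), beside 41.3% of all genes. Igfbp1, a glucocorticoid target at 1.65 in liver 2 and -2.18 in liver 3, had no value in livers 4 and 5.

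Of the marker lists, 4 of 14 hepatocyte markers were called higher and 0 lower, of which 2 were retained without liver 1, 2 or 5, 2 with median centring, and 1 with processed signals or the deposited ratios. Among 10 stellate cell markers 0 were called higher and 1 lower, Col1a1, whose call was lost without liver 2 or 3, with scaling between arrays and with probes averaged, where its mean log2 ratio was -0.50. Kupffer cell, sinusoidal endothelium and neutrophil markers had 0 called. Of 11, 10 and 8 tested, 8, 7 and 2 had an unadjusted p under 0.05 (limma), beside 41.3% of all genes.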
